A study of Mus musculus with 20 samples.

Results

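De novo lipogenesis, the synthesis of fatty acids from sugar and other carbon, was followed through 10 genes of the pathway in mouse liver, chosen by name: Fasn, Acaca, Acacb, Acly, Scd1, Elovl6, Srebf1, Mlxipl, Thrsp and Me1. They are 10 of 38924 genes in the table, and all 10 were among the 14524 genes tested. RNA was measured in 20 livers, 5 per group, from male mice that were purchased at 5 weeks of age, acclimated for 1 week and fed for 12 weeks. WT mice were C57BL/6J and TSP-1 null mice carried a knockout of Thbs1, the gene of thrombospondin-1, a matrix glycoprotein that activates TGF-β1. Mice received control chow (NDWT for WT and NDKO for TSP-1 null) or CDAHFD (HFWT and HFKO), a high fat diet with amino acids in place of protein, without choline and with little methionine. Both genotypes were bought from 1 supplier, littermate controls are not named in the sources used here, and neither is the feeding state at death. The right medial lobe is given by the series description and the right lateral lobe by the paper. Nothing but the mouse number separates the 5 samples of a group.

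In the liver, citrate leaves the mitochondrion and ATP citrate lyase (Acly) splits it into acetyl-CoA, which acetyl-CoA carboxylase turns into malonyl-CoA. Fatty acid synthase (Fasn) builds palmitate from malonyl-CoA with NADPH, partly supplied by malic enzyme (Me1), and Elovl6 and Scd1 lengthen and desaturate the product. Insulin acts on these genes through SREBP-1 (Srebf1) and sugar through ChREBP (Mlxipl), and the pathway is known as a source of fat in fatty liver disease.

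The 10 genes moved in both directions on CDAHFD. Srebf1, Fasn and Acly rose in both genotypes, whereas Scd1, Me1 and Acacb fell in both. Of those that rose, only Srebf1 was also called in both genotypes under the other library scalings described below, and Acly was called in neither. Scd1, Me1 and Acacb kept their calls under these scalings. Mlxipl and Elovl6, called lower in WT only, were called lower in both genotypes under them. Scd1, the main desaturase of liver, moved furthest, from a mean of 1562 FPKM in NDWT to 49.1 FPKM in HFWT. None of the 10 genes passed the threshold between genotypes on either diet. The plot of levels by group shows these patterns mouse by mouse.

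**Figure D1:**
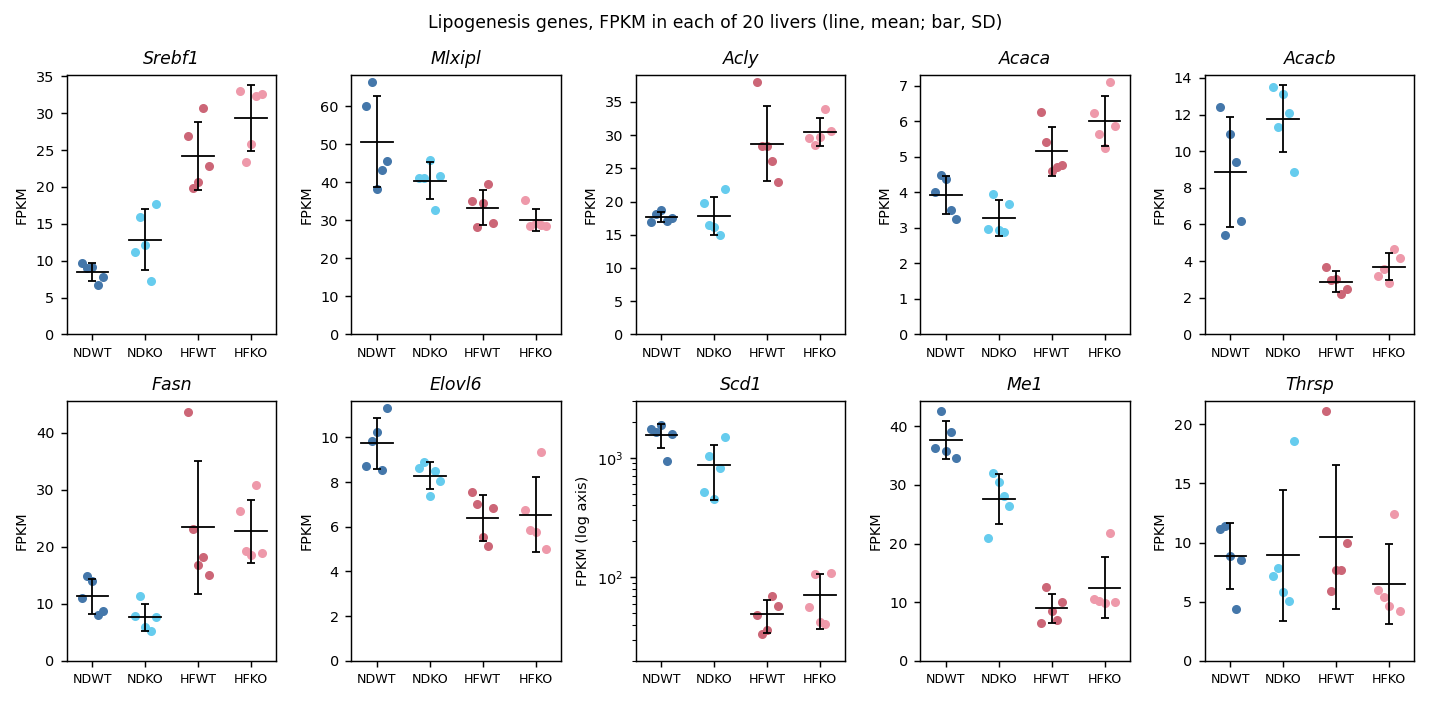
FPKM of each lipogenesis gene (vertical axes from 0, except a log axis for Scd1) in the 5 livers of each group (horizontal axis). Points are mice, lines group means and bars SD. Scd1 lies between 33.3 and 109 FPKM in the 10 CDAHFD livers and between 455 and 1880.0 FPKM in the 10 control diet livers.

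The libraries held 15641545 to 23276322 fragments assigned to genes (median 18950482.5). FPKM, fragments scaled to gene length and library size, is a measure per length, so levels can be compared between genes. Genotypes here are those on the labels. On the control diet Thbs1 lay between 0.0580 and 0.326 FPKM in libraries labelled NDWT and between 0.986 and 1.90 FPKM in those labelled NDKO. On CDAHFD it lay between 3.46 and 6.10 FPKM (HFWT) and between 3.05 and 4.40 FPKM (HFKO). On the control diet this runs against the labels (limma log2FC 2.28, FDR 1.02e-05), and on CDAHFD the labels were not separated (log2FC −0.39, FDR 0.408). A value per gene does not tell which part of Thbs1 the fragments came from, and whether the labels are right was not tested. A gene was called with a Benjamini-Hochberg FDR under 0.05 in limma and an absolute log2 fold change (log2FC) above 0.58, on log2(FPKM + 0.1), which understates the change of low genes. On CDAHFD the median log2FC over all tested genes was 0.53 in WT and 0.50 in TSP-1 null livers, and between genotypes it was −0.07 on the control diet and −0.10 on CDAHFD. Scaling the libraries to a common median of ratios took these medians to −0.01, −0.01, 0.00 and 0.00, and calls of the lipogenesis genes that turn on this are named with them.

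The 250 bases before the transcription start in RefSeq (GRCm38.p6) are printed for the 3 genes that rose on CDAHFD in both genotypes and 2 of those that fell, so that their promoters can be read beside the values. Windows were matched by gene symbol for 9 of the 10 genes (13 windows, since some genes have several starts). The gene without a window was Scd1, so it is absent from the motif counts. Capitals mark the CCAAT box bound by NF-Y (CCAAT or, on the other strand, ATTGG) and the GC box bound by Sp1 (GGGCGG or CCGCCC). For Srebf1, which has 3 windows, the one with the most of these matches is shown, and for Me1 the one next to the start of the gene in the deposited table. The Srebf1 and Acacb windows shown lie inside the deposited genes, which begin at 60222581 (minus strand) and 114146535, so they belong to internal starts.
Fasn, chr11:120824548-120824797, minus strand: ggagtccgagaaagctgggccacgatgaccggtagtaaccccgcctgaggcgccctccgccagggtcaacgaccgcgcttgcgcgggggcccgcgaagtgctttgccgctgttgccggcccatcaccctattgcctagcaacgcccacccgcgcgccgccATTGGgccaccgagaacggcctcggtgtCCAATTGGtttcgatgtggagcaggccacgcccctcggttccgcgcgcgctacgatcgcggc
Srebf1, chr11:60210472-60210721, minus strand: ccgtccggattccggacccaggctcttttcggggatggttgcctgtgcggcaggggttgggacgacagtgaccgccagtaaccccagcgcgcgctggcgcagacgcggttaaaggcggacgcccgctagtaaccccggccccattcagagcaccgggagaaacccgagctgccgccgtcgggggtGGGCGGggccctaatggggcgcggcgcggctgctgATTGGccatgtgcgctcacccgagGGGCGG
Acly, chr11:100528001-100528250, minus strand: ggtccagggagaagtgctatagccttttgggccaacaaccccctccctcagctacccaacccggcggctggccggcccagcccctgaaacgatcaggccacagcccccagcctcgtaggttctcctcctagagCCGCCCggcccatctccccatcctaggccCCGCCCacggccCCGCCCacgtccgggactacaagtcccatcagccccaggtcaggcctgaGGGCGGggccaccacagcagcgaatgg
Acacb, chr5:114165268-114165517, plus strand: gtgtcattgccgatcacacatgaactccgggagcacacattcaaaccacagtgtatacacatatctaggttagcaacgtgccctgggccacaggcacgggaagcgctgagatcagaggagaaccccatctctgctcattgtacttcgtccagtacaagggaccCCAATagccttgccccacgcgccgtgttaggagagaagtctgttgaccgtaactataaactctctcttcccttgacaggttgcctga
Me1, chr9:86695915-86696164, minus strand: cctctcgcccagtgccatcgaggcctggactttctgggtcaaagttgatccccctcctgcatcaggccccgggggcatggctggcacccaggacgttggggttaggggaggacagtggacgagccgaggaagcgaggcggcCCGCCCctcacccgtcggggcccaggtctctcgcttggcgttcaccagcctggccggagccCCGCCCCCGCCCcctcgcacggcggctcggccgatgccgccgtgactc

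Of all 32851 windows of this length, 33.8% held the CCAAT box and 32.7% the GC box on either strand. The Fasn window held 3 CCAAT matches, beginning 59, 62 and 90 bases before the start, the first pair overlapping, and no GC box. The Srebf1 window held 1 CCAAT match and 2 GC boxes, and the Acly window 4 GC boxes and no CCAAT match. Of the genes that fell, the Acacb window held 1 CCAAT match and the Me1 window 3 GC boxes. Over the 9 genes, 6 had a CCAAT match in at least 1 window and 4 a GC box. Counted by window, as the shares above are, 7 of the 13 held a CCAAT match. A sterol regulatory element in the form TCACNCCAC was found in 1 gene (Mlxipl; 1.05% of all windows), the E-box CACGTG in 1 gene (Mlxipl; 6.02%) and the nuclear receptor motif AGGTCA in 2 (Acly and Elovl6; 14.0%). No motif was in all 3 printed windows of the genes that rose.

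Of the regulators, Srebf1 (ENSMUSG00000020538.9, chromosome 11, 60199089 to 60222581, minus strand, GRCm38) encodes the precursor of SREBP-1, the transcription factor that switches on most of the pathway. Its FPKM was 9.65, 9.07, 9.18, 6.67 and 7.75 in NDWT and 26.9, 19.8, 20.7, 30.7 and 22.9 in HFWT. In NDKO it was 11.2, 15.9, 12.1, 7.20 and 17.8, and in HFKO 33.0, 23.4, 25.8, 32.3 and 32.6. Every CDAHFD liver was above every control diet liver of either genotype. Srebf1 rose with CDAHFD in WT (log2FC 1.50, SE 0.191, FDR 9.09e-07, limma) and in TSP-1 null livers (log2FC 1.24, SE 0.191, FDR 1.01e-05, limma). It was called with both other scalings, at 0.94 (median of ratios) and 1.11 (quantile) in WT, and at 0.71 and 0.89 in TSP-1 null livers.

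Mlxipl (ENSMUSG00000005373.7, chromosome 5, 135106891 to 135138382, plus strand) encodes ChREBP, the sugar-responsive factor of the pathway. It was the more abundant of both factors on the control diet, at 59.9, 66.4, 38.3, 43.3 and 45.6 FPKM in NDWT and 41.1, 41.0, 45.8, 32.6 and 41.6 in NDKO. On CDAHFD the values were 35.1, 28.3, 34.4, 39.5 and 29.4 FPKM in HFWT, with 35.3, 28.4, 29.3, 28.7 and 28.6 in HFKO. The groups overlapped in both genotypes. Mlxipl fell in WT (log2FC −0.58, SE 0.133, FDR 6.33e-04, limma), just past the fold threshold, and the call was lost without NDWT mouse 1 or 2 or HFWT mouse 2 or 5 (−0.54 to −0.48). With the other scalings the fall in WT was larger and was called, at −1.14 (median of ratios) and −0.76 (quantile). In TSP-1 null livers its log2FC of −0.42 (SE 0.133, FDR 0.00814, limma) missed the fold threshold, and it was called with the median of ratios (−0.96) and quantile scaling (−0.66).

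Of the enzymes that supply and carboxylate acetyl-CoA, Acly (ENSMUSG00000020917.11, chromosome 11, 100476353 to 100528000, minus strand) varied least of the 10 in NDWT, at 16.8, 18.2, 18.8, 17.1 and 17.5 FPKM in NDWT. HFWT livers held 37.9, 28.4, 28.3, 26.0 and 22.9 FPKM. Among TSP-1 null livers the values were 19.8, 16.4, 16.2, 15.0 and 21.9 FPKM on the control diet and 29.5, 28.4, 29.6, 33.9 and 30.6 FPKM on CDAHFD. The diet groups did not overlap in either genotype. Acly rose in WT (log2FC 0.68, SE 0.112, FDR 2.23e-05, limma) and in TSP-1 null livers (log2FC 0.78, SE 0.112, FDR 4.52e-06, limma). These values are close to the median of all genes: with the median of ratios they were 0.12 and 0.25 and with quantile scaling 0.38 and 0.47, and none of the 4 was called. Without HFWT mouse 1 the WT value was 0.57, below the fold threshold.

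The carboxylase has a cytosolic form, ACC1 (Acaca), whose malonyl-CoA feeds synthesis, and a form on the mitochondrion, ACC2 (Acacb), whose malonyl-CoA restrains the entry of fatty acids for oxidation. The 2 forms went apart on CDAHFD. Acacb (ENSMUSG00000042010.10, chromosome 5, 114146535 to 114250761, plus strand) was 12.4, 5.42, 10.9, 9.43 and 6.18 FPKM in NDWT and 3.69, 2.98, 3.05, 2.19 and 2.48 in HFWT. In TSP-1 null livers it was 13.5, 11.3, 13.1, 12.1 and 8.85 FPKM in NDKO and 3.21, 3.55, 2.83, 4.64 and 4.20 in HFKO, again without overlap. Acacb fell in WT (log2FC −1.54, SE 0.204, FDR 1.41e-06, limma) and in TSP-1 null livers (log2FC −1.66, SE 0.204, FDR 6.37e-07, limma).

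Acaca (ENSMUSG00000020532.12, chromosome 11, 84129672 to 84401651, plus strand) was 4.00, 4.48, 4.37, 3.51 and 3.25 FPKM in NDWT and 6.25, 5.41, 4.59, 4.72 and 4.78 in HFWT. It was 2.95, 3.95, 2.93, 2.87 and 3.67 FPKM in NDKO and 6.22, 5.63, 5.25, 7.10 and 5.87 in HFKO. Both pairs of diet groups stood apart. Acaca rose in TSP-1 null livers (log2FC 0.86, SE 0.117, FDR 2.12e-06, limma), whereas its WT log2FC of 0.39 (SE 0.117, FDR 0.00597, limma) was under the fold threshold. Its direction in WT turned with the scaling, to −0.16 with the median of ratios (FDR 0.196) and −0.28 with quantile scaling (FDR 0.0329, limma), and the TSP-1 null call was lost with both (0.34 and 0.24).

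Fasn (ENSMUSG00000025153.8, chromosome 11, 120805940 to 120824178, minus strand), which makes palmitate, was 10.9, 14.9, 14.1, 7.98 and 8.79 FPKM in NDWT and 43.7, 23.2, 16.9, 18.2 and 15.1 in HFWT. It was 7.77, 11.3, 5.87, 5.27 and 7.76 FPKM in NDKO and 26.2, 19.2, 18.6, 30.8 and 18.9 in HFKO. No CDAHFD liver was as low as any control diet liver of its genotype, and HFWT mouse 1 stood far above its group. Fasn rose with CDAHFD in WT (log2FC 0.97, SE 0.264, FDR 0.00278, limma), also without that mouse (0.71, FDR 0.00873, limma), and in TSP-1 null livers (log2FC 1.59, SE 0.264, FDR 2.41e-05, limma). The WT call was lost with the median of ratios (0.41, FDR 0.164, limma) and with quantile scaling (0.60, FDR 0.0507, limma).

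Scd1 (ENSMUSG00000037071.2, chromosome 19, 44394451 to 44407709, minus strand) encodes the desaturase that makes oleate and palmitoleate. Its FPKM was 1759.8, 1652, 1880.0, 948 and 1569.7 in NDWT and 48.6, 33.3, 36.4, 69.4 and 57.7 in HFWT. In NDKO it was 522, 1041, 455, 826 and 1487, and in HFKO 56.5, 107, 41.9, 40.7 and 109. Every control diet liver of either genotype lay far above every CDAHFD liver. Scd1 fell in WT (log2FC −5.00, SE 0.336, FDR 1.47e-10, limma), where the mean was 31.8 times lower, and in TSP-1 null livers (log2FC −3.61, SE 0.336, FDR 1.55e-08, limma), where it was 12.2 times lower. In WT it ranked 9 from the lowest of the 14524 log2FC values, and in TSP-1 null livers 28.

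Because FPKM is per length, the 10 genes can be added. Scd1 held 90.5% ± 2.10 (SD, n = 5) of their summed FPKM in NDWT and 84.4% ± 5.97 in NDKO, against 25.4% ± 6.38 in HFWT and 31.6% ± 12.1 in HFKO. The sum went from 1719 ± 372 FPKM in NDWT to 193 ± 30.8 in HFWT. Without Scd1 the other genes summed to 157 ± 18.2 FPKM in NDWT and 143 ± 26.1 FPKM in HFWT, and to 139 ± 14.7 FPKM in NDKO and 148 ± 21.4 FPKM in HFKO.

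Elovl6 (ENSMUSG00000041220.6, chromosome 3, 129532386 to 129638495, plus strand), which elongates palmitate to stearate, was 8.72, 9.82, 10.3, 8.52 and 11.3 FPKM in NDWT and 7.54, 7.01, 5.53, 5.12 and 6.82 in HFWT, without overlap. It was 8.63, 8.91, 7.37, 8.47 and 8.03 FPKM in NDKO and 6.74, 5.87, 5.75, 9.34 and 4.98 in HFKO, where HFKO mouse 4 lay above the whole NDKO group. Elovl6 fell in WT (log2FC −0.60, SE 0.138, FDR 6.40e-04, limma). This call was lost without NDWT mouse 5 or HFWT mouse 3 or 4 (−0.55 to −0.53). It was kept, with a larger fall, under the median of ratios (−1.16) and quantile scaling (−1.15). In TSP-1 null livers the log2FC was −0.37 (SE 0.138, FDR 0.0227, limma), under the fold threshold, and −0.90 with either other scaling, where it was called.

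Me1 (ENSMUSG00000032418.9, chromosome 9, 86581363 to 86695914, minus strand), the cytosolic malic enzyme, was 36.3, 42.5, 35.9, 39.1 and 34.5 FPKM in NDWT and 6.52, 12.6, 8.51, 6.96 and 10 in HFWT. It was 21.0, 32.0, 30.4, 28.1 and 26.3 FPKM in NDKO and 10.5, 10.2, 9.85, 21.9 and 9.96 in HFKO, where mouse 4 alone reached the NDKO range. Me1 fell in WT (log2FC −2.10, SE 0.199, FDR 1.69e-08, limma) and in TSP-1 null livers (log2FC −1.20, SE 0.199, FDR 2.40e-05, limma).

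Thrsp (ENSMUSG00000035686.7, chromosome 7, 97412938 to 97417730, minus strand) encodes Spot 14, a small protein that promotes lipogenesis and responds to thyroid hormone and sugar. It was 11.2, 11.4, 8.84, 4.38 and 8.52 FPKM in NDWT and 21.1, 5.90, 7.69, 7.69 and 9.97 in HFWT. It was 7.17, 7.86, 5.82, 5.10 and 18.6 FPKM in NDKO and 5.96, 5.41, 4.61, 12.4 and 4.19 in HFKO. Its CV was the highest of the 10 genes in NDKO, HFWT and HFKO (51.8% to 62.1%), and it rested on 96 to 483 fragments per library. The groups overlapped, and neither diet difference passed (log2FC 0.16, 95% CI −0.63 to 0.95, FDR 0.714 in WT, and −0.40, −1.18 to 0.39, FDR 0.357 in TSP-1 null livers, limma). Its direction in WT turned to −0.40 with the median of ratios, and in TSP-1 null livers it was called lower with that scaling (−0.92, FDR 0.0377, limma) and with quantile scaling (−0.95, FDR 0.0398, limma).

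**Figure D2:**
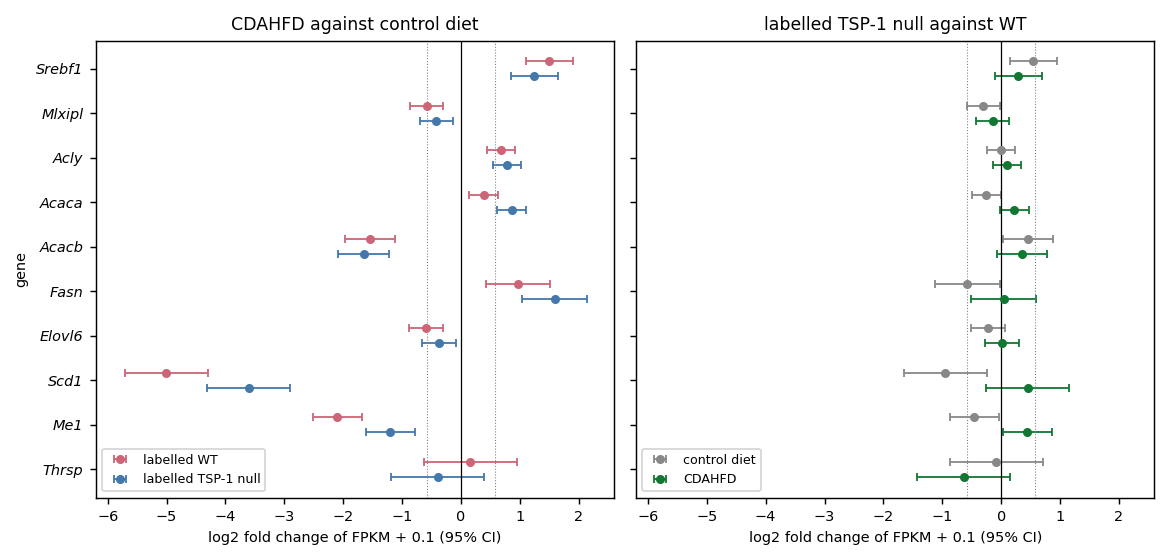
Log2 fold changes of the 10 genes (horizontal axes, with 95% CI from limma) for CDAHFD against control diet by genotype (left) and for labelled TSP-1 null against WT by diet (right). Dotted lines mark the fold threshold of 0.58. Scd1 lies furthest left, at −5.00 in WT and −3.61 in TSP-1 null livers, and no gene on the right is called.

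Counted together, 3 of the 10 genes were called higher on CDAHFD in WT, where 44.1% of all tested genes were, and 5 were called lower, where 4.62% of all genes were. Of the 10, 8 had groups that did not overlap (4 higher and 4 lower), against 56.2% of all genes. With the median of ratios 15.4% of all genes were called lower in WT and with quantile scaling 17.6%, with 5 of the 10 lower under each. In TSP-1 null livers 4 were called higher against 41.9% of all genes, and 3 lower against 4.00%. There the scalings gave 6 of the 10 lower each, against 13.6% and 15.1% of all genes. There 6 of the 10 had groups without overlap, against 57.8% of all genes. The median log2FC of the 10 was −0.21 in WT and −0.38 in TSP-1 null livers, while the medians of all genes given above lie over 0.

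The genotype comparison sets livers labelled TSP-1 null against those labelled WT on each diet, though the FPKM of Thbs1 itself did not follow the labels. It shares its libraries with the diet comparisons. On the control diet limma called 0 of the 10 genes higher and 0 lower, against 1.74% and 3.03% of all tested genes, and 7 of the 10 had an unadjusted p under 0.05, as had 27.3% of all genes. Srebf1 had the lowest FDR, at a mean of 12.8 ± 4.15 FPKM in NDKO against 8.46 ± 1.23 in NDWT (log2FC 0.54, 95% CI 0.14 to 0.94, FDR 0.0681, limma). It was called with the median of ratios (0.62, FDR 0.0323, limma) and without NDKO mouse 4 (0.73, FDR 0.00813, limma), the only NDKO liver inside the NDWT range.

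Scd1 was at 866 ± 420 FPKM in NDKO against 1562 ± 363 in NDWT (log2FC −0.95, 95% CI −1.65 to −0.25, FDR 0.0690, limma). The groups overlapped through NDWT mouse 4 and NDKO mice 2 and 5. It was called lower without NDWT mouse 4 (−1.12, FDR 0.0398, limma) or without NDKO mouse 5 (−1.18, FDR 0.0225, limma). Me1 was the only gene of the 10 whose groups did not overlap, against 9.03% of all genes, at 27.6 ± 4.27 FPKM in NDKO and 37.7 ± 3.19 in NDWT (log2FC −0.46, FDR 0.140, limma). Fasn (−0.58, FDR 0.160), Acaca (−0.25, FDR 0.164), Acacb (0.46, FDR 0.150) and Mlxipl (−0.30, FDR 0.145) also failed the limma test after correction. For Acly the interval of the difference was −0.23 to 0.23.

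On CDAHFD limma again called 0 of the 10 higher and 0 lower (0.165% and 0.330% of all genes), 1 had an unadjusted p under 0.05 (17.2% of all genes had), and none had groups without overlap (4.98% of all genes). Me1 was that gene, at 12.5 ± 5.25 FPKM in HFKO and 8.92 ± 2.47 in HFWT (log2FC 0.44, 95% CI 0.03 to 0.86, FDR 0.261, limma). Scd1 was 71.1 ± 34.4 FPKM in HFKO and 49.1 ± 15.0 in HFWT (log2FC 0.45, −0.25 to 1.15, FDR 0.505, limma). For Fasn the interval was −0.51 to 0.59 and for Elovl6 −0.28 to 0.30.

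The difference of the diet effect between genotypes was tested as an interaction, which called 0 of the 10 genes in limma (0.337% of all genes were called higher and 0.310% lower), with 3 at an unadjusted p under 0.05 (15.1% of all genes). They were Me1 (0.90, 95% CI 0.31 to 1.49, FDR 0.128), Scd1 (1.40, 0.41 to 2.39, FDR 0.164) and Acaca (0.48, 0.13 to 0.82, FDR 0.170), all by limma. So the smaller fall of Scd1 and Me1 in the libraries labelled TSP-1 null was not shown to differ from that in WT.

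A ratio of 2 genes within a liver is not changed by a scaling factor for the whole library, though quantile normalization can change it. Acacb over Acaca, ACC2 against ACC1, had a mean log2 ratio of 1.12 ± 0.54 (SD, n = 5) in NDWT and −0.85 ± 0.19 in HFWT, and of 1.84 ± 0.42 in NDKO and −0.72 ± 0.20 in HFKO. So in FPKM Acacb stood above Acaca in each control diet liver and below it in each CDAHFD liver, though the lowest log2 ratio in NDWT was only 0.27. Of the 31-base words in Acaca transcripts 35.0% also occur in other genes, against 0 in Acacb. What this does to the order of the 2 forms was not tested. Mlxipl over Srebf1 went from 2.56 ± 0.31 in NDWT to 0.47 ± 0.16 in HFWT and from 1.71 ± 0.40 in NDKO to 0.04 ± 0.21 in HFKO. Scd1 over Fasn went from 7.11 ± 0.29 to 1.13 ± 0.81 in WT and from 6.75 ± 0.66 to 1.54 ± 0.93 in TSP-1 null livers. Elovl6 over Fasn went from −0.19 ± 0.40 to −1.77 ± 0.50 in WT and from 0.17 ± 0.38 to −1.80 ± 0.13 in TSP-1 null livers.

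All 8 diet differences of these 4 ratios reached the smallest p that 5 against 5 livers allow (exact permutation, two-sided, p = 0.00794, Benjamini-Hochberg over 16 comparisons 0.0141). For Acacb over Acaca, for Scd1 over Fasn, and in WT for Elovl6 over Fasn, the 2 genes already stood apart in opposite directions. These ratios therefore had to separate, and their p adds no further test. Between genotypes 2 of the other 8 differences passed. Mlxipl over Srebf1 was lower in livers labelled TSP-1 null, by a log2 difference of −0.85 on the control diet (exact p = 0.0159, adjusted 0.0254) and of −0.43 on CDAHFD without overlap (exact p = 0.00794, adjusted 0.0141). It kept an adjusted p of at most 0.0381 on the control diet and 0.0254 on CDAHFD when any 1 liver was left out. Acacb over Acaca was 0.73 higher in NDKO than in NDWT (exact p = 0.0556, adjusted 0.0808), which passed only without NDKO mouse 5 (0.87, adjusted exact p 0.0462).

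**Figure D3:**
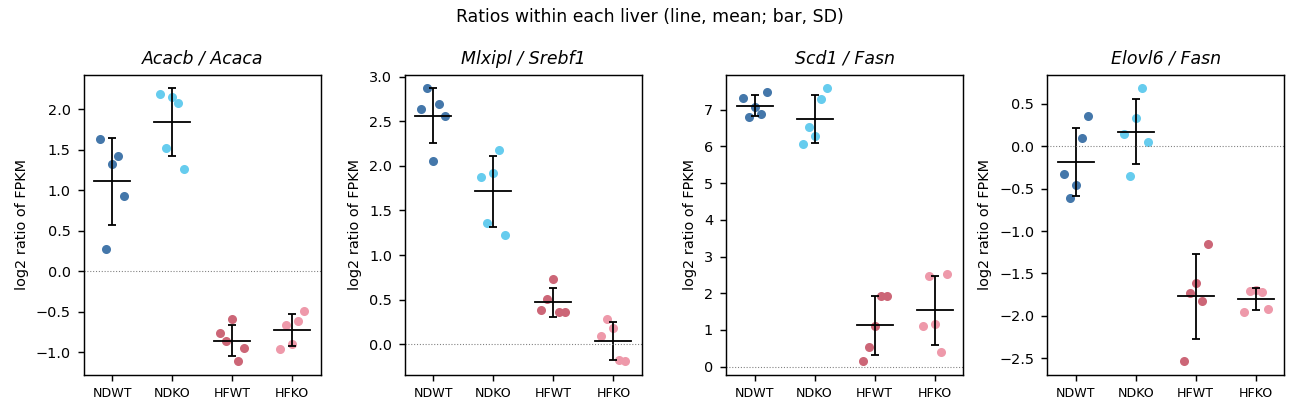
Log2 ratios of FPKM within each liver (vertical axes) for 4 pairs of lipogenesis genes in the 4 groups (horizontal axis). Points are mice, lines means and bars SD, and dotted lines mark equal levels. Every control diet liver lies above every CDAHFD liver of its genotype in all 4 panels.

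Within groups, the deviations of the genes from their group means were set against each other over the 20 livers, for 45 pairs. Fasn and Acaca went together (Pearson r = 0.897, Spearman rho = 0.871, permutation p = 2e-05 for both from 100000 resamples, Benjamini-Hochberg over 45 pairs 9e-04). Without the 2 livers farthest from the median of Fasn, HFWT mouse 1 among them, r was 0.868. It was the only pair that passed, for r and for rho, and with the median of ratios r was 0.848. Fasn and Scd1 had an r of 0.06 (rho 0.105, permutation p = 0.799, adjusted 0.896), and over all pairs r ran from −0.325 to 0.897 with a median of 0.198. Fasn with Srebf1 had an r of 0.535 (rho 0.544, permutation p = 0.0217, adjusted 0.0899).

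**Figure D4:**
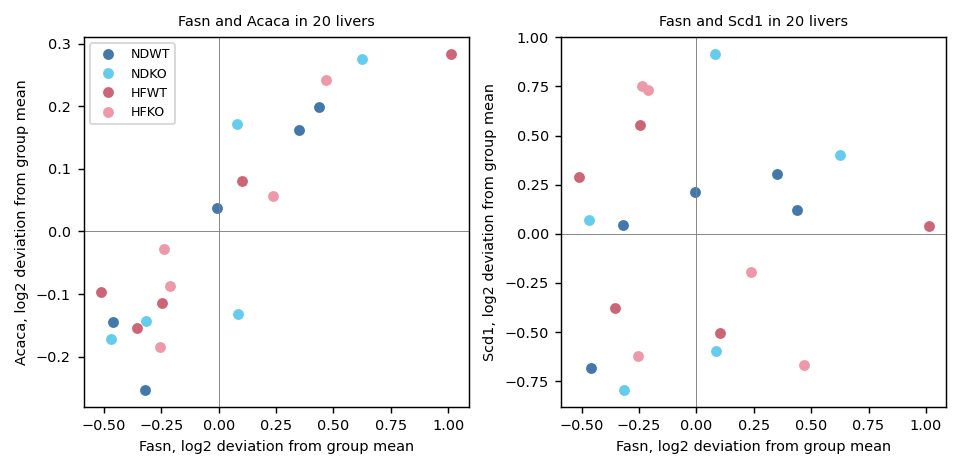
Log2 deviations from the group mean in 20 livers for Fasn (horizontal axes) against Acaca (left) and Scd1 (right), coloured by group. The points lie along a rising line for Acaca (r = 0.897) and scatter for Scd1 (r = 0.06).

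The 5 other genes whose deviations were most like the mean deviation of the 10, over 20 libraries, were Pklr (r = 0.893), the liver pyruvate kinase, Cers2 (0.883), a ceramide synthase, Aifm3 (0.846), Lman2 (0.843) and Snd1 (0.825). This mean deviation was highest in HFWT mouse 1 (0.34 log2 units), HFKO mouse 4 (0.31) and NDKO mouse 5 (0.28), and lowest in NDWT mouse 4 (−0.28).

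Around the 10 genes, the processing and partners of SREBP-1 and ChREBP were read from a list of 20 genes, all tested. In WT 6 were called higher and 1 lower, and TSP-1 null livers had 5 higher and 2 lower. For this and each list below, the shares of all tested genes were 44.1% higher and 4.62% lower in WT. In TSP-1 null livers these shares were 41.9% and 4.00%. Srebf2, the sterol-regulated relative of Srebf1, rose in both (log2FC 1.41 and 1.50). Insig1, which holds the SREBP precursor in the endoplasmic reticulum and is itself a SREBP target, rose (0.94 and 1.70), while its relative Insig2 fell (−0.70 and −1.13). Nfya, a subunit of NF-Y, rose (1.01 and 0.87), as did Usf1 (0.66 and 0.61), and Nr1h2, LXRβ, in WT (0.80). Neither Scap, the escort of SREBP (−0.38 and −0.14), nor Mlx, the partner of ChREBP (0.42 and 0.23), was called. With the median of ratios the list stood at 1 higher and 6 lower in WT, while TSP-1 null livers had 2 and 4. Srebf2 was called higher with both other scalings in both genotypes, and Nfya, Usf1 and Nr1h2 with neither. Insig1 lost its WT call with the median of ratios (0.38).

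Of 15 measured genes of carbon supply, 2 were called higher and 1 lower in WT, while 5 were higher and 1 lower in TSP-1 null livers. Pfkl, the liver phosphofructokinase, rose in both (log2FC 0.71 and 0.93). Cs, citrate synthase (0.60), and Slc2a2, the glucose transporter GLUT2 (0.88), rose in TSP-1 null livers, as did Pklr (1.16). Slc25a1, which carries citrate to the cytosol for Acly, was at 0.05 and 0.25 and not called. This list stood with the median of ratios at 4 lower in WT, with no gene higher, and at 2 higher and 5 lower in TSP-1 null livers. With quantile scaling limma called 0 of the list in WT (6 at an unadjusted p under 0.05), and in TSP-1 null livers 3 were higher and 1 lower. Pfkl lost its calls with both.

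Of 9 other genes of cytosolic NADPH supply, 4 were called higher in each genotype, a share near that of all genes given above. They were Pgd (log2FC 2.46 and 2.27) and G6pdx (2.24 and 2.07), the dehydrogenases of the pentose phosphate pathway, and Tkt (1.33 and 1.24) and Taldo1 (1.04 and 1.23), which act after them. G6pdx went from 2.29 ± 0.364 FPKM in NDWT to 11.2 ± 1.53 in HFWT, and Pgd from 3.73 ± 0.465 to 21.1 ± 2.75. Per length, Me1 was the most abundant of these 3 in NDWT and the least abundant of them by mean in HFWT. Of the 9 only Aldh1l1 fell, in TSP-1 null livers (−0.62), a gene named after its value was seen. With the median of ratios the list stood at 3 higher and 2 lower in WT, and at 4 and 3 in TSP-1 null livers. Taldo1 lost its WT call with the median of ratios (0.48), and Pgd, G6pdx and Tkt were called with both other scalings.

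Of 14 genes around malonyl-CoA, 6 were called higher and 1 lower in WT, while 4 were higher and 1 lower in TSP-1 null livers. Of all genes, 44.1% were called higher in WT and 41.9% in TSP-1 null livers. Mid1ip1, the relative of Spot 14 that promotes the polymerisation of acetyl-CoA carboxylase, rose from 3.37 ± 0.874 FPKM in NDWT to 11.8 ± 2.56 in HFWT (log2FC 1.79 and 1.92), in contrast to Thrsp, which was not called. AMPK, the kinase that inactivates the carboxylase, was represented by Prkab2 (2.11 and 2.06), Prkaa1 (0.98 and 0.91) and Prkab1 (0.99 and 0.74), and the last pair lost their calls with both other scalings. With the median of ratios the list stood at 2 higher and 4 lower in WT and at 2 of each in TSP-1 null livers, and with quantile scaling at 2 and 3 and at 2 and 1. Mlycd, which degrades malonyl-CoA, fell in WT (−0.58) and was at −0.44 in TSP-1 null livers. Btd, biotinidase, named after its value was seen, fell in TSP-1 null livers (−0.58).

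The other desaturases and elongases also went both ways. Of the 14 measured, 12 were tested, and 4 rose and 3 fell in each genotype. Elovl3 fell (log2FC −4.02 and −4.46), from 198 ± 52.5 FPKM in NDWT to 13.4 ± 8.69 in HFWT and from 141 ± 50.2 in NDKO to 6.17 ± 1.58 in HFKO. Scd2, an isoform of Scd1, rose (log2FC 2.84 and 2.49) from 0.946 ± 0.112 FPKM in NDWT to 7.44 ± 1.15 in HFWT, still below Scd1. Elovl7 (3.01 and 2.80) and Elovl1 (1.43 and 1.70) rose as well. Elovl2 (−1.56 and −1.11), Elovl5 (−1.33 and −1.04) and Fads3 (1.25 and 1.26), named after their values were seen, make up the rest. By the median of ratios 3 rose and 5 fell in WT, and 3 of each in TSP-1 null livers. Fads3 lost its call with both other scalings in WT and with the median of ratios in TSP-1 null livers.

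Of 6 tested genes of glyceride assembly, 2 were called higher and 2 lower in WT, and 1, Acsl3, in TSP-1 null livers. Lpin1, a phosphatidate phosphatase and coactivator, rose in WT (log2FC 0.95), as did Acsl3 (0.80, and 0.66 in TSP-1 null livers), while Acsl5 (−0.79) and Agpat2 (−0.62) fell in WT. Lpin1 and Acsl3 lost these calls with both other scalings, Acsl3 reaching −0.01 in TSP-1 null livers with quantile scaling. Lpin1 was also the gene of these lists called between genotypes on both diets. It was at 8.64 ± 3.40 FPKM in NDKO against 3.32 ± 0.900 in NDWT (log2FC 1.30, FDR 7.19e-04, limma) and 12.0 ± 0.785 in HFKO against 6.36 ± 0.764 in HFWT without overlap (0.91, FDR 0.0401, limma).

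**Figure D5:**
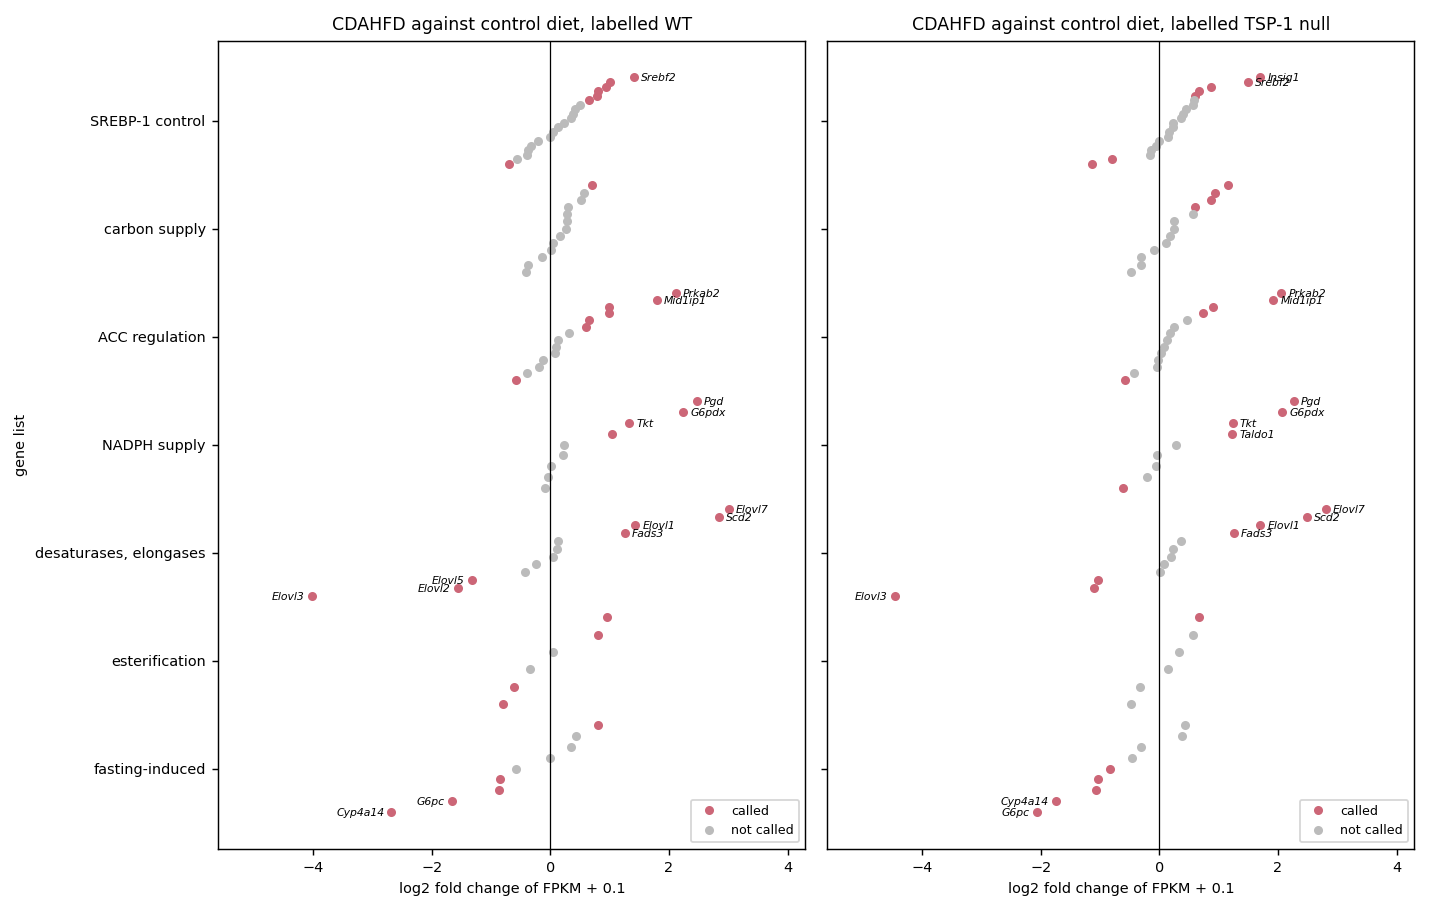
Log2 fold changes on CDAHFD (horizontal axes) of the genes described here from 7 lists around lipogenesis (vertical axis) in WT (left) and TSP-1 null livers (right). Red points are called genes and grey points are not, and called genes past 1.2 carry their name. Pgd and G6pdx lie at 2.07 to 2.46 and Elovl3 at −4.02 and −4.46.

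Genes induced by fasting were read because feeding itself moves lipogenesis. Of 10 genes, 1 was called higher and 5 lower on CDAHFD in WT, and 6 lower in TSP-1 null livers. G6pc, glucose-6-phosphatase (log2FC −1.66 and −2.07), and Cyp4a14, a PPARα target (−2.68 and −1.75), fell in both. So did Angptl4 (−0.86 and −0.83) and Pck1, of gluconeogenesis (−0.85 and −1.03). With quantile scaling Pck1 lost its call in both genotypes. The gene that rose in WT was Ppargc1a (0.81), which turned to −0.14 with quantile scaling. On the control diet 3 of the 10 were higher in NDKO than in NDWT without overlap: Igfbp1 (1.98, FDR 0.00485), Ppargc1a (1.28, FDR 0.00219) and Pck1 (0.82, FDR 0.00832), all by limma. In the same comparison Pklr (−0.82, FDR 0.0353) and the ketoacyl reductase Hsd17b12 (−0.70, FDR 1.34e-04) were lower by limma. With quantile scaling Pck1 (0.60) and Pklr (−0.71) lost these calls. The part of the feeding state in the control diet values of Srebf1, Scd1 and Me1 was not tested.

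In a piece of liver, fewer cells of a type and less RNA per cell cannot be told apart. Summed FPKM of 8 hepatocyte markers ran from 33479 to 41029.5 in NDWT and 25722 to 37146 in HFWT, and from 37255 to 44435 in NDKO and 34038 to 44999 in HFKO, with 1 of 8 called lower on CDAHFD in WT and 2 in TSP-1 null livers. Scaled to the median of ratios, 8 and 5 of them were called lower, and with quantile scaling 1 was, in TSP-1 null livers. Markers of stellate cells (7 of 7 higher in both genotypes), cholangiocytes (5 of 5), T and B cells (6 of 7) and macrophages (of 7, 4 higher and 2 lower in WT, with 5 and 2 among TSP-1 null livers) moved with the diet. Their summed FPKM went from 16.1 to 22.7 in NDWT to 119 to 251 in HFWT for stellate cells, and from 15.2 to 18.0 to 292 to 488 for cholangiocytes. For T and B cells it went from 1.31 to 3.63 to 6.74 to 11.3, and for macrophages from 189.5 to 258 to 1166 to 1598. After median of ratios scaling 5 T and B cell markers were called higher in WT and 2 in TSP-1 null livers. With quantile scaling 3 were in WT, where Ms4a1 turned from 1.25 to −0.22, while in TSP-1 null livers every higher call of this list was lost and 1 marker was called lower. Of the stellate cell markers 5 were called higher in each genotype with either scaling. Of 5 endothelial markers 1 was higher, in TSP-1 null livers, and 2 were lower in WT with either other scaling (summed FPKM 50.6 to 53.4 in NDWT and 39.9 to 61.7 in HFWT). The part of these cells in the values of the 10 genes was not tested.

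Adipocytes also run this pathway. Of their 8 markers, Lep was listed at 0 in every library, and Adipoq, Plin1 and Retn reached at most 0.114, 0.0520 and 0.0950 FPKM. The summed FPKM of the list (596 to 1406 in NDWT and 448 to 722 in HFWT, 1543 to 1689 in NDKO and 634 to 1066 in HFKO) was mostly Pck1, which hepatocytes express. Of 4 tested, Cfd and Pck1 were called lower in WT and Pck1 in TSP-1 null livers.

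Some fragments may be shared with other genes, and how reads with several matches were counted is not given in the sources used here. Of the 31-base words in the GENCODE transcripts of Me1, 52.0% also occur in other genes, mostly the predicted genes Gm7049 (28.6%) and Gm48795 (22.0%), and of those of Acaca 35.0%, mostly Gm5182 (31.7%). For Scd1 it was 8.36%, of which Scd3 and Scd2 hold most, for Elovl6 7.37% and for Mlxipl 5.76%. Fasn, Acacb and Acly shared none. Exons of Srebf1 overlap those of Rai1 on the other strand over 432 of 5634 bases, and Rai1 reached 6.35 FPKM at most. The kit keeps the strand, but its use in counting is not stated.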

How the data were processed

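The members and gene lists were chosen with earlier results of these data known. According to the labels, poly(A) RNA was sequenced in paired ends on a HiSeq 4000 from a strand-keeping kit. The authors processed the reads with QuickRNASeq, and the submitters' processing notes name STAR 2.5.2 and featureCounts from Subread 1.5.1. These notes list the build GRCh38, but the coordinates of all 10 genes are those of GRCm38 (GENCODE). The deposited unit is FPKM, with no further scaling between libraries. Library sizes were recovered from the steps of low FPKM values, and FPKM times gene length then gave whole fragments, within the rounding of the file, for 100% of the values checked. These were at least 98.7% of the positive values of a library, those for which that rounding is under 0.2 fragments.

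A gene entered the fit if 5 or more libraries exceeded 0.5 FPKM, and was fitted with limma 3.58.1 (R 4.3.3, eBayes with trend, all 20 libraries in 1 fit) on log2(FPKM + 0.1), with FDR over all 14524 genes. The count tools were not used, as FPKM are no counts. Ratios were tested by exact permutation. All 10 genes are named, with the called genes of each list (at most 4 by FDR per comparison), direct partners, the 5 nearest genes and Thbs1. Promoters came from RefSeq. No 2 libraries of a group were copies (chi-square per gene at least 13.0). Alternatives were other pseudocounts (0.01 and 1), filters, scalings, fits and left-out mice. Python 3.11.15, numpy 2.4.6, pandas 2.3.3, scipy 1.17.1 and matplotlib 3.10.9 were used. The same replicate numbers did not pair mice: of 30 pairs of deviations 0 correlated above 0.1 (−0.133 to 0.0812). The lists were also counted under both other scalings, a choice made after their values were seen. Some genes counted in the lists are not reported here by name or value.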

Additional observations from a re-analysis of the deposited data

Results flagged for a closer look

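Of 40 sets of 5 livers (10 genes in 4 groups), 6 had 1 liver far from the others, where the gap to the nearest liver exceeded 0.71 of the range of the group. That limit flags about 1 in 20 sets of independent normal values. The rule was applied to FPKM without logs, and HFWT mouse 1 and HFKO mouse 4 each appear for more than 1 gene. So the count of 6 is not set against chance. Fasn was high in HFWT mouse 1 (43.7 FPKM, gap 0.718 of the range), and Thrsp was high in the same liver (21.1 FPKM, 0.732). HFKO mouse 4 was high for Me1 (21.9 FPKM, 0.947) and for Thrsp (12.4 FPKM, 0.786). Thrsp was also high in NDKO mouse 5 (18.6 FPKM, 0.796), and Mlxipl in HFKO mouse 1 (35.3 FPKM, 0.869).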

How the results depend on the processing

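Of the single gene and ratio values recomputed, 1812 kept their direction and side of the threshold, 18 lost and 14 gained a call, and 32 changed sign. Of these only Acaca in WT had an FDR under 0.05 in the fit reported (limma), and it went to −0.16 with median of ratios scaling and −0.28 with quantile normalization. The others were uncalled under every setting: Thrsp in WT went to −0.40 and −0.35 with these scalings (−0.13 to 0.33 with 1 mouse left out), and between genotypes on the control diet Acly to 0.0748 and 0.0654 and to 4.04e-04 with a pseudocount of 1 (−0.0768 to 0.0595) and Thrsp to −0.39 to 0.0720 with 1 mouse left out. On CDAHFD leaving out 1 mouse gave −0.0852 to 0.30 for Fasn, −0.13 to 0.10 for Elovl6 and −0.22 to 0.12 for Elovl6 over Fasn, and the interaction of Acacb was 0.0255 with quantile normalization (−0.25 to 0.0458). With both scalings the number of the 10 genes called higher on CDAHFD went to 1 in WT with each and to 2 in TSP-1 null livers with each, and the number called lower in TSP-1 null livers went to 6 with each, and to 5 with no fold threshold. With the median of ratios 22.7% of all genes were called higher in WT and 22.2% in TSP-1 null livers. Quantile normalization gave 17.3% and 16.7%. With a pseudocount of 1, 3 genes were called lower in WT. Between genotypes on the control diet 1 gene was called higher with median of ratios scaling, and with any 1 mouse left out 0 to 1 were called higher and 0 to 1 lower, as named above. The cause of these changes was not tested. Both scalings lower the median of all genes for the diet and raise it between genotypes. With any 1 mouse left out 2 to 3 genes were called higher and 4 to 5 lower on CDAHFD in WT, 4 and 3 in TSP-1 null livers, and 10 to 11 of the 16 ratio differences passed. The replicate block left every count of called lipogenesis genes as it was (3 higher and 5 lower in WT, 4 and 3 in TSP-1 null livers, 0 between genotypes by limma), and the numbers do not pair the mice. On the control diet Srebf1 was at FDR 0.00813 to 0.157 and Scd1 at 0.0225 to 0.173 over all alternatives (limma). Over all genes the share of calls on CDAHFD that were higher was 90.5% in WT and 91.3% in TSP-1 null livers, 59.5% and 62.0% with the median of ratios, and 49.5% and 52.6% with quantile normalization. Between genotypes it was 36.5% on the control diet and 33.3% on CDAHFD, 51.4% and 58.5% with the median of ratios, and 51.0% and 62.5% with quantile normalization. With 5 mice a group, p-values of ratios could not fall under 0.00794, and Thrsp rests on the fewest fragments.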
